A study of Mus musculus with 11 samples.

Results

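Small RNA was compared between pronuclear (2PN) mouse embryos made with sperm of Dicer cKO males and 2PN embryos made with wild-type (WT) sperm. The sample labels give 1 library on each side, while the design text speaks of duplicates, so it is unknown whether a library combines several preparations. These 2 of the 11 libraries of the series are compared here across all 2304 listed features, 1592 mature miRNAs and 712 endo-siRNAs. The other libraries are 7 of cauda epididymal sperm (2 WT, 2 Dicer cKO, 3 Drosha cKO), 1 of superovulated WT oocytes and 1 of 2PN embryos made with Drosha cKO sperm. All animals were adult, on a C57BL/6 background. The cKO males carried a germ line conditional knockout made with floxed alleles and a Cre line, with the Cre driver not given in the sources used here. The embryos came from sperm injection (ICSI). Oocytes were taken from WT females, so the label Dicer cKO on the embryo library describes its sperm, and the embryos had an egg with intact Dicer. The sources used here do not give the number of embryos pooled, or whether the 2 pools came from separate females or days. With 1 library a side the difference has no replicate check. All intervals are 95% exact intervals that cover counting error only, and PCR reads without molecular identifiers are not independent molecules.

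Dicer trims precursor miRNAs to their mature length, and these guide Argonaute proteins to target RNAs mainly through the seed, bases 2 to 8 of the mature strand. A fully grown mouse oocyte holds a large maternal store of RNA, and a sperm adds a small load of its own, rich in miRNAs of the testis such as the miR-34 and miR-449 family. The miR-290-295 cluster is transcribed in the early mouse embryo and in embryonic stem cells. The comparison asks how the small RNA content of the zygote differs when the father's germ cells lacked Dicer.

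The sequences below are those of the miRNAs the results turn on, as RefSeq gives them on GRCm38.p6, 5′ to 3′ with the seed in capitals. Members of the miR-290-295 cluster are shown first, since 4 of the 16 features lower past 2-fold belong to it; 33 of the 36 features counted below had a RefSeq mature sequence.
miR-293-3p: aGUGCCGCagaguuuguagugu
miR-294-3p: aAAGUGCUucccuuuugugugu
miR-290a-5p: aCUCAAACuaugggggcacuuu
The next set is the pair from the imprinted Dlk1-Dio3 region, then miR-23a-3p, the pair that shares the miR-15 and miR-16 seed, and miR-19b-3p, the most abundant miRNA of WT sperm with reads in either embryo library.
miR-376a-3p: aUCGUAGAggaaaauccacgu
miR-376b-3p: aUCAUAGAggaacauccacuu
miR-23a-3p: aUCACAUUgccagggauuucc
miR-16-5p: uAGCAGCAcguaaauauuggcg
miR-195a-5p: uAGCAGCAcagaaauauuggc
miR-19b-3p: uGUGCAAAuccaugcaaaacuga
The last set holds the pair of miRNAs that dominated both embryo libraries, both arms of the miR-7a-1 and let-7b hairpins, and miR-344d-3p, which had the highest ratio among features with at least 20 reads.
miR-30c-5p: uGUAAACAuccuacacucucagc
miR-183-5p: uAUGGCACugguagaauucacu
miR-7a-5p: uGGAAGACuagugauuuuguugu
miR-7a-1-3p: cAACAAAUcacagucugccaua
let-7b-5p: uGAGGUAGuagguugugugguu
let-7b-3p: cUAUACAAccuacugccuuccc
miR-344d-3p: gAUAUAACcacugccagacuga

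The WT embryo library held 3243 listed reads and the Dicer cKO embryo library 2951. These were 0.374% and 0.196% of the number by which the authors divided the counts to make their RPM values (867112 and 1503209), so listed small RNA was 1.91-fold lower in the Dicer cKO library in RPM. The sources used here do not say what that divisor counts. Values below are shares of listed reads unless RPM is named, and RPM ratios are lower than share ratios by that same factor. Taken as 3 reads of the total, a count of 0 allows a share of up to 0.0925% in the WT library and 0.102% in the Dicer cKO library; the exact 95% interval for 0 reads reaches 0.114% and 0.125%. Reads were found for 249 features in the WT library and 183 in the Dicer cKO library, of which 106 had reads in both and 158 of the 326 in either had 1 read in all. Of the 326, 198 (60.7%) had a lower share in the Dicer cKO library and 128 a higher one, and the member counts by share below are set beside that figure. In both libraries most reads came from features that are far more abundant in oocytes than in sperm. The 26 features with at least 10 oocyte reads and at least 4 times the WT sperm level made up 86.6% of the oocyte library, 81.5% of the WT embryo library and 88.3% of the Dicer cKO embryo library, but 2.68% and 3.07% of the WT sperm libraries. Epithelial miRNAs of the miR-200, miR-141 and miR-205 group had 2 reads in the WT library and 0 in the Dicer cKO library. Of the blood cell list, miR-451a and miR-144 had 0 reads in both, and 11 of 11 and 13 of 14 reads were those of miR-155-5p, which had 53 reads in the oocyte library.

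Of the 36 features that reached 10 reads in either library, 16 (44.4%) were at least 2-fold lower in embryos from Dicer cKO sperm and 7 (19.4%) were at least 2-fold higher. In RPM the split was 22 lower and 2 higher, and with edgeR TMM factors it was 14 lower and 10 higher. Each scaling multiplies all ratios by 1 factor of under 2-fold, also with miRNA reads alone and without miR-30c-5p. None of the 23 could therefore change direction. Of the 7 higher features, 2 stayed past 2-fold in RPM and 7 with TMM factors. Of the 16 lower features, 16 and 14 did. The counting interval left out equal shares for 17 features on the lower side (47.2%) and 6 on the higher side (16.7%). The median log2 ratio over the 36 was −0.67, which became −1.60 in RPM and −0.29 with TMM factors. The 16 lower features held 22.3% of WT reads and 6.44% of Dicer cKO reads, and the 7 higher ones held 6.29% and 16.2%. For 14 of the 16 the Dicer cKO library had the lowest share of the 4 oocyte and embryo libraries. For 13 of the 16 the WT embryo library had the highest, and 11 had both. In RPM the counts of lowest and highest were 16 and 8. The calling rule favours both orders, since it picked features low in the Dicer cKO against the WT library. Over all 36 features the counts were 18 and 15 by share and 28 and 10 in RPM. By share, 12 of the 16 were also at least 2-fold lower in embryos from Drosha cKO sperm than in WT embryos. Over all features with at least 10 reads in either of those libraries, 18 of 49 were. Both ratios use the same WT library, and the 16 were picked partly for a high value there, so the counts are not independent. Among features with a matched mature sequence, median GC content was 45.5% and median length 22 bases in the lower, the higher and the remaining features alike. A sequence was matched for 13 of the 16 lower, all 7 higher and all 13 remaining features. miR-292a-3p, which had the lowest ratio, was without one.

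**Figure D1:**
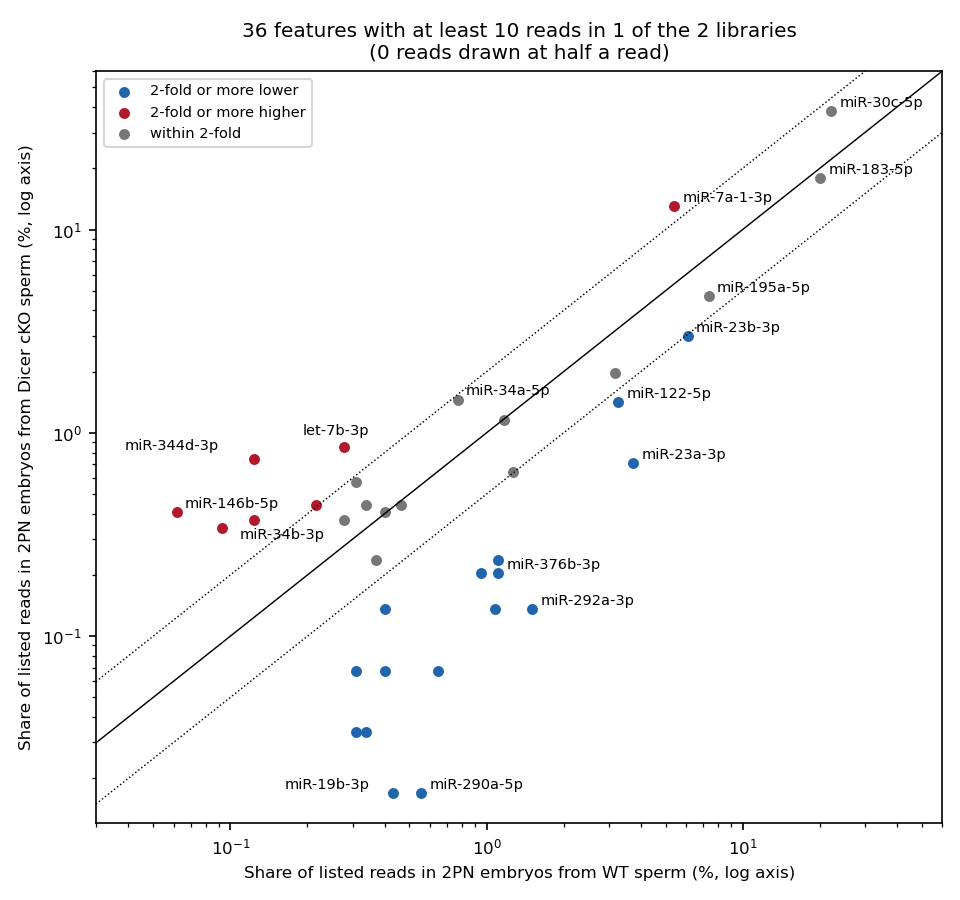
Share of listed reads of each of the 36 features in 2PN embryos from WT sperm (x axis, percent, log scale) and from Dicer cKO sperm (y axis, percent, log scale), 1 library each; the solid line marks equal shares, the dotted lines 2-fold, and features with 0 reads are drawn at 0.5 of a read. The 16 lower features lie below the lower dotted line, and miR-30c-5p and miR-183-5p sit at the top in both libraries.

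Libraries of 1 group show how far such values move without a change of label. Among features at least as abundant as 10 reads in the WT embryo library, 1.75% were 2-fold apart between the Dicer cKO sperm libraries, 24.5% between the WT sperm libraries and 10.4% to 29.9% between pairs of Drosha cKO sperm libraries. Between the embryo libraries compared here 63.9% (23 of 36) were 2-fold apart, and between the WT embryo and the oocyte library 32.6% (14 of 43), on far fewer reads than in sperm. The chi-square per degree of freedom was 17.7 for the embryo pair, 6.10 for WT embryo against oocyte, and 10.5 between Drosha cKO sperm replicates 2 and 3, the shallowest replicate pair, which still had more reads. It was 19.3 for embryos from Drosha cKO sperm against WT embryos, a pair with 49.0% of features 2-fold apart. For the Dicer cKO against the Drosha cKO embryo library it was 26.6, with 31.9% (15 of 47) of features 2-fold apart. The deeper same-group sperm pairs gave 43.1 to 224, and since the statistic grows with depth these values are not on one scale. The part of pooling, RNA input and library preparation in these differences was not tested.

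The miR-290-295 cluster, whose miRNAs promote the cell cycle in embryonic stem cells, had the largest difference among the groups with a member in the count of 36. Its 17 listed members summed to 157 reads, 4.84% (4.13 to 5.64) of the WT library, and to 16 reads, 0.542% (0.310 to 0.879) of the Dicer cKO library, which is 8.93-fold lower (5.33 to 16.01) and 17.0-fold lower in RPM. The cluster stood at 3.42% in the oocyte library and at 1.55% in embryos from Drosha cKO sperm, so the Dicer cKO library was the lowest of the 4. In RPM the sums were 167 in oocytes, 181 in WT, 10.6 in Dicer cKO and 114 in Drosha cKO embryos. Of the 13 members with reads in either library, 12 had a lower share in the Dicer cKO library (against 60.7% of all features with reads), and 1, miR-291b-5p with 1 and 2 reads, had a higher one. The 4 members that entered the count of 36 were all at least 2-fold lower, and the members outside that count summed to 34 and 6 reads.

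miR-292a-3p had 49 reads in the WT and 4 in the Dicer cKO library, 11.1-fold lower (4.09 to 42.5), with 41 reads in the oocyte and 39 in the Drosha cKO library. miR-293-3p, from chr7:3220390-3220411 on the plus strand, had 35 and 4 reads, 7.96-fold lower (2.85 to 30.8). miR-294-3p, from chr7:3220691-3220712, had 21 and 2 reads, 9.55-fold lower (2.34 to 84.1). Both hairpins lie within the annotated spans of Nlrp12 and D7Ertd143e. miR-290a-5p, from chr7:3218639-3218660 and outside any other annotated gene, had 18 reads in the WT library and 0 in the Dicer cKO library, at least 5.46-fold lower when 0 is set to the floor of 3 reads; the exact interval begins at 4.001-fold lower. It also had 2 reads in the Drosha cKO library and 14 in the oocyte library. The 4 features with the seed AAGUGCU (miR-291a-3p, miR-294-3p, miR-295-3p and miR-302d-3p) summed to 30 and 2 reads, 13.6-fold lower in the Dicer cKO library. The seed CUCAAAC of miR-290a-5p and miR-292a-5p summed to 21 and 0 reads, at least 6.37-fold lower at the floor of 3 reads, with an exact upper limit of 0.211 on the ratio. WT sperm held little of this cluster, at 0.067% and 0.042% of listed reads.

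miR-23a-3p and miR-23b-3p, paralogs from separate clusters with miR-27 and miR-24, were both lower in the Dicer cKO library, by different amounts. miR-23a-3p, from chr8:84208563-84208583 on the plus strand, had 121 reads (3.73%) in the WT and 21 (0.712%) in the Dicer cKO library, 5.24-fold lower (3.28 to 8.78). It stood at 1.57% in the oocyte and 0.725% in the Drosha cKO library, so the WT embryo library was the highest of the 4. miR-23b-3p had 198 reads (6.11%) and 88 (2.98%), 2.05-fold lower (1.58 to 2.66), with 4.70% in the oocyte and 2.52% in the Drosha cKO library. The share of miR-23a-3p among the reads of this pair does not depend on scaling: it was 37.9% (32.6 to 43.5) in the WT, 19.3% (12.3 to 27.9) in the Dicer cKO, 22.3% (17.7 to 27.6) in the Drosha cKO and 25.1% (20.6 to 30.0) in the oocyte library. How reads were assigned to features is not stated in the sources at hand, so those that fit both paralogs may have been split between them. The other members of these clusters were near 0, with miR-27a-3p at 2 and 0 reads and miR-27b-3p at 0 and 2.

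The Dlk1-Dio3 region on chromosome 12, an imprinted domain whose miRNAs come from the maternal allele, summed to 73 reads (2.25%) in the WT and 25 (0.847%) in the Dicer cKO library, 2.66-fold lower (1.67 to 4.37). Of its 19 members with reads, 11 had a lower share and 8 a higher share in the Dicer cKO library, close to the 60.7% lower over all features. miR-376b-3p, from chr12:109723508-109723528, had 36 and 6 reads, 5.46-fold lower (2.28 to 15.9), with 76 reads in the oocyte and 22 in the Drosha cKO library. miR-376a-3p, from chr12:109723824-109723844, had 13 and 2 reads, 5.91-fold lower (1.34 to 54.0). The mature strands differ at 3 positions, counted from the 5′ end with miR-376a-3p first: G4A, A13C and G20U, the first of them in the seed. Without this pair the region held 24 and 17 reads.

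miR-16-5p and miR-195a-5p share the seed AGCAGCA, which targets cell cycle genes, and differ at G10A and U11G (miR-16-5p first). miR-16-5p had 36 reads in the WT and 7 in the Dicer cKO library, 4.68-fold lower (2.05 to 12.5). miR-195a-5p, from chr11:70235062-70235082, had 239 and 139 reads, 1.56-fold lower (1.26 to 1.94), with 8.05% in the oocyte and 11.1% in the Drosha cKO library. The share of miR-16-5p among the reads of the pair was 13.1% (9.34 to 17.7) in the WT, 4.79% (1.95 to 9.63) in the Dicer cKO, 2.92% (1.98 to 4.14) in the Drosha cKO and 6.12% (4.14 to 8.67) in the oocyte library, highest in WT embryos. All 6 members of the miR-15 and miR-16 group with reads had a lower share in the Dicer cKO library, against 60.7% of all features, and those other than miR-16-5p and miR-195a-5p summed to 13 and 6 reads. The group summed to 8.88% and 5.15%, 1.72-fold lower (1.41 to 2.11). miR-103-3p, which comes from hairpins within the annotated spans of Pank2 and Pank3 and is linked to metabolic control, had 31 and 6 reads, 4.70-fold lower (1.93 to 13.8). It made up 0.956% of the WT, 0.203% of the Dicer cKO, 0.245% of the Drosha cKO and 0.542% of the oocyte library.

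miR-122-5p, best known as the major liver miRNA, had 106 reads (3.27%) in the WT and 42 (1.42%) in the Dicer cKO library, 2.30-fold lower (1.59 to 3.37), with 121 reads in the oocyte library. The other 4 of the 16, at 10 to 13 WT reads, were past 2-fold on few reads. miR-3472 had 11 and 1 reads, a ratio of 10.01-fold lower with a counting interval of 1.45 to 431. miR-214-3p, a mesenchymal miRNA from the Dnm3os transcript, had 10 and 1 reads (9.10-fold, 1.29 to 395). miR-31-5p had 10 and 2 reads (4.55-fold, 0.970 to 42.7), and let-7a-5p had 13 and 4 (2.96-fold, 0.914 to 12.5). The intervals of miR-31-5p and let-7a-5p reached past equal shares.

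**Figure D2:**
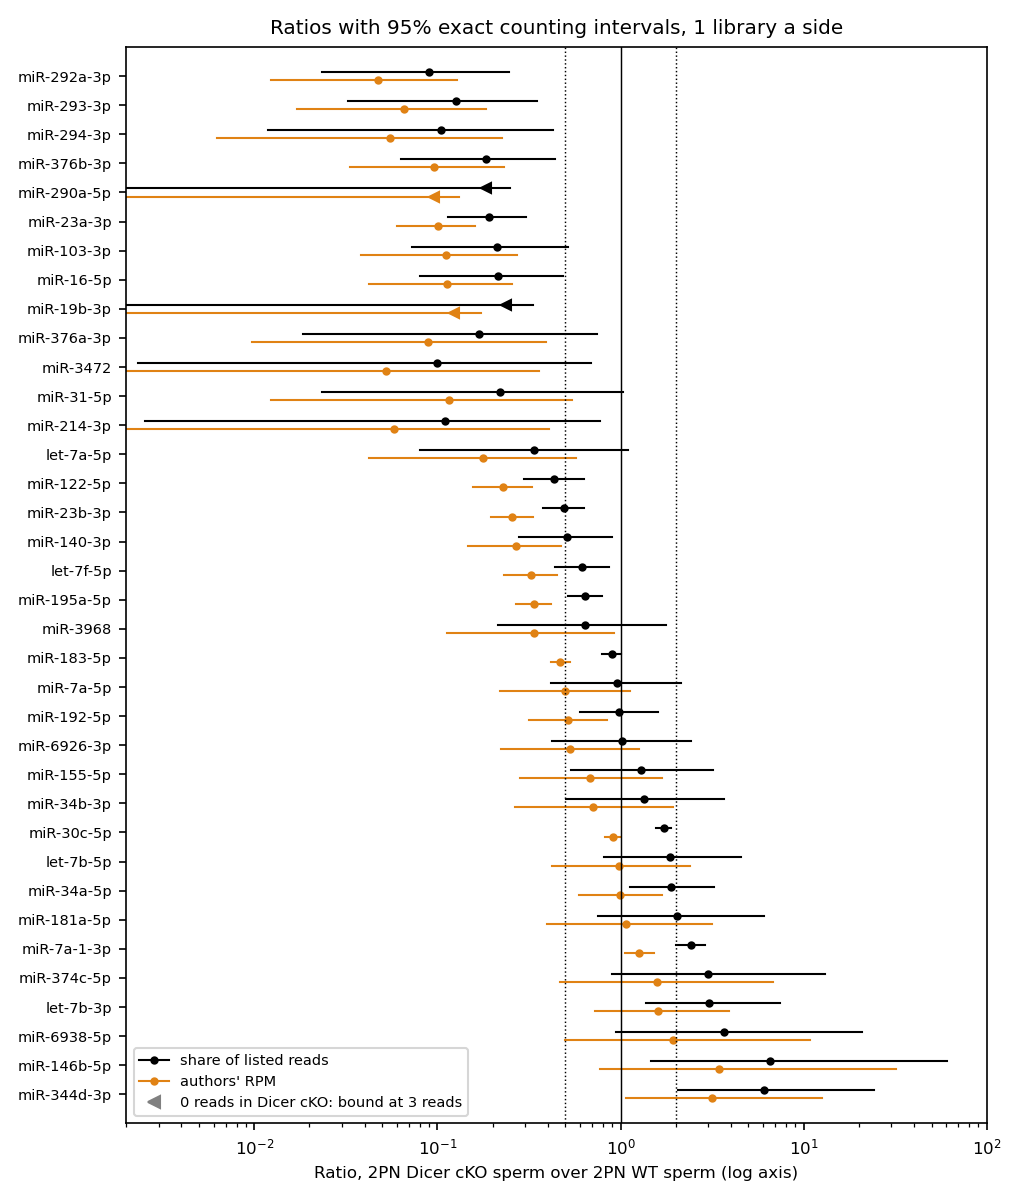
Ratio of Dicer cKO over WT embryo libraries for each of the 36 features (x axis, log scale), by share of listed reads in black and by the authors' RPM in orange; bars are 95% exact counting intervals, drawn down to 0.002 at most, and triangles are bounds at 3 reads for the 2 features with 0 reads. The ratios run from 0.0897 for miR-292a-3p to 6.59 for miR-146b-5p by share, and every orange value lies left of its black value.

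On the higher side, miR-7a-1-3p stood out by its abundance. This strand comes from the Mir7-1 hairpin within the annotated span of Hnrnpk (chr13:58392800-58392821, minus strand). It had 175 reads, 5.40% (4.64 to 6.23), in the WT library and 385 reads, 13.0% (11.9 to 14.3), in the Dicer cKO library, 2.42-fold higher (2.02 to 2.91) and 1.27-fold higher in RPM. The oocyte library held 3.56% and the Drosha cKO library 2.65%, so the Dicer cKO library was the highest of the 4. The other arm, miR-7a-5p, which is also made from a second hairpin, had 15 and 13 reads, a ratio of 0.952 (0.417 to 2.15). The 3p arm made up 92.1% (87.3 to 95.5) of the reads of the pair in the WT, 96.7% (94.5 to 98.3) in the Dicer cKO, 78.8% (73.8 to 83.3) in the Drosha cKO and 93.4% (89.1 to 96.3) in the oocyte library. In the Drosha cKO library this share was the lowest, and the intervals of the WT and Dicer cKO libraries overlap.

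miR-344d-3p, made from 3 hairpins on chromosome 7, had 4 reads in the WT and 22 in the Dicer cKO library, 6.04-fold higher (2.05 to 24.1) and 3.17-fold higher in RPM. It had 15 reads in the oocyte library and 13 in the Drosha cKO library. miR-146b-5p, known for its part in inflammatory signalling, had 2 and 12 reads, 6.59-fold higher (1.47 to 60.7) and 3.46-fold higher in RPM, but the oocyte and Drosha cKO libraries held 15 and 40, so the WT embryo library was the low one. let-7b-3p had 9 and 25 reads, 3.05-fold higher (1.38 to 7.43) and 1.60-fold higher in RPM. Its partner let-7b-5p had 10 and 17 reads, a ratio of 1.87 (0.808 to 4.57), which was 0.981 in RPM. The 3p arm was 47.4% (24.4 to 71.1) of the let-7b pair in the WT, 59.5% (43.3 to 74.4) in the Dicer cKO, 47.7% (32.5 to 63.3) in the oocyte and 12.4% (6.56 to 20.6) in the Drosha cKO library. miR-374c-5p, miR-6938-5p and miR-181a-5p had 4 and 11, 3 and 10, and 7 and 13 reads. Their ratios were 3.02 (0.896 to 13.0), 3.66 (0.943 to 20.7) and 2.04 (0.757 to 6.04), with intervals that hold equal shares.

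**Figure D3:**
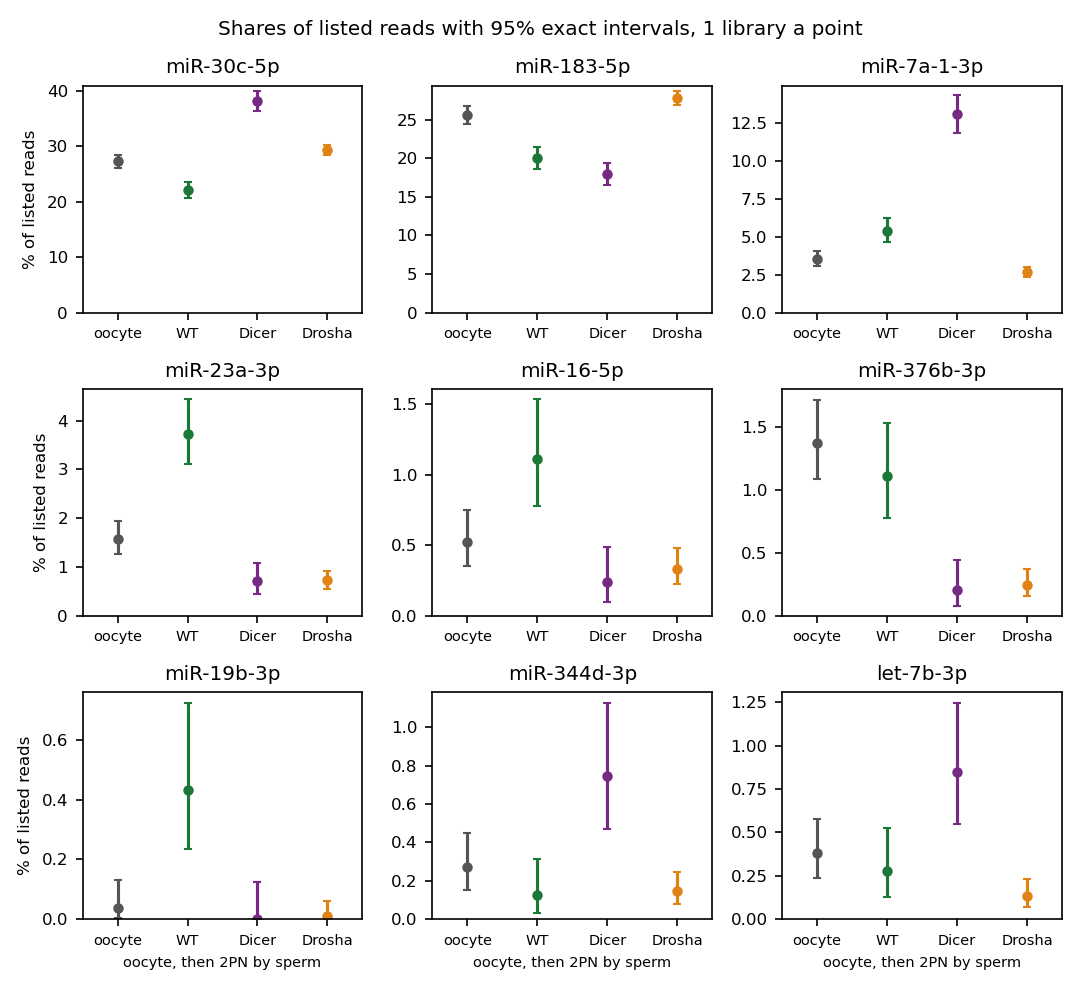
Share of listed reads (y axis, percent, from 0) of 9 miRNAs in WT oocytes and in 2PN embryos, labelled by their sperm (WT, Dicer or Drosha cKO); points are single libraries and bars are 95% exact intervals. The Dicer cKO library is highest for miR-30c-5p (38.2%), miR-7a-1-3p, miR-344d-3p and let-7b-3p, and the WT embryo library is highest for miR-23a-3p, miR-16-5p and miR-19b-3p.

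miR-30c-5p and miR-183-5p were the most abundant pair in both embryo libraries, as in the oocyte library. miR-30c-5p, made from hairpins on chromosomes 1 and 4, had 717 reads, 22.1% (20.7 to 23.6), in the WT library and 1126 reads, 38.2% (36.4 to 39.9), in the Dicer cKO library, a ratio of 1.73 (1.57 to 1.90). In RPM the direction turned, at 827 in the WT and 749 in the Dicer cKO library (ratio 0.906). miR-183-5p, from a cluster active in sensory organs (chr6:30169711-30169732, minus strand), had 649 and 528 reads, 20.01% and 17.9%, a ratio of 0.894 (0.796 to 1.004), which was 0.469 in RPM and 1.16 with TMM factors. The share of miR-30c-5p among the reads of these 2 miRNAs was 51.7% in the oocyte, 52.5% (49.8 to 55.2) in the WT, 68.1% (65.8 to 70.3) in the Dicer cKO and 51.4% in the Drosha cKO library, and this share does not depend on scaling. The Dicer cKO library thus stood apart from the other 3 in this balance. Of the rest of the miR-30 family, miR-30a-5p, miR-30b-5p, miR-30d-5p and miR-30e-5p had at most 3 reads in either embryo library.

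The other features of the count stayed within 2-fold. let-7f-5p had 103 and 58 reads (ratio 0.619, 0.441 to 0.862) and miR-140-3p, a cartilage miRNA within the span of Wwp2, had 41 and 19 (0.509, 0.279 to 0.898). The let-7 family, which promotes differentiation, summed to 4.96% and 4.0%, a ratio of 0.805 (0.630 to 1.03) that became 0.423 in RPM and 1.05 with TMM factors. miR-192-5p had 38 and 34 reads (0.983, 0.600 to 1.60), miR-6926-3p had 13 and 12, miR-3968 had 12 and 7, and miR-155-5p had 11 and 13. miR-34a-5p, a target of p53, had 25 and 43 reads, a ratio of 1.89 (1.13 to 3.23) that was 0.992 in RPM.

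Sperm miRNAs were few in either embryo library. The 53 features with at least 100 CPM in WT sperm and at least 4 times the oocyte level made up 80.9% and 83.8% of the WT sperm libraries. They gave 126 reads, 3.89% (3.25 to 4.61), in WT embryos and 48 reads, 1.63% (1.20 to 2.15), in embryos from Dicer cKO sperm, 2.39-fold lower (1.70 to 3.40) and 4.55-fold lower in RPM. The oocyte library held 2.19% (1.82 to 2.61) and the Drosha cKO library 1.94% (1.67 to 2.25), so the interval of the Dicer cKO library overlapped those of both and the WT library lay above the other 3. Of the 32 of these features with reads in either library, 25 had a lower share in the Dicer cKO library and 7 a higher one, beside 198 lower and 128 higher over all features.

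The 53 were divided by their level in Dicer cKO sperm. The 27 that were at least 4-fold lower there than in WT sperm gave 37 and 14 reads in WT and Dicer cKO embryos, 2.40-fold lower (1.27 to 4.82). The 17 that were not lower in Dicer cKO sperm gave 37 and 13 reads, 2.59-fold lower (1.35 to 5.31), and the 9 in between gave 52 and 21, 2.25-fold lower (1.33 to 3.94). The 3 groups therefore had ratios within each other's intervals, although they differed in sperm by construction. In the first group 11 of the 14 Dicer cKO reads were those of miR-34b-3p. Without it, a choice made after its values were seen, the group held 28 and 3 reads, 8.49-fold lower (2.62 to 43.7). Of those 28 WT reads, 14 were those of miR-19b-3p, and the oocyte library held 20 reads of the remaining members. No member was left out of the other groups. Over the 36 features, the log2 ratio in embryos and the log2 ratio of Dicer cKO over WT in sperm had a Pearson correlation of 0.333 and a Spearman correlation of 0.349. The sperm log2 ratio was floored at 3 reads over the libraries of a group. Features below that floor in both groups, such as miR-292a-3p with 0 sperm reads, all took the value 0.608, set by the read totals alone. The 2 comparisons share no library but share the counting rule, and the features differ in depth.

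**Figure D4:**
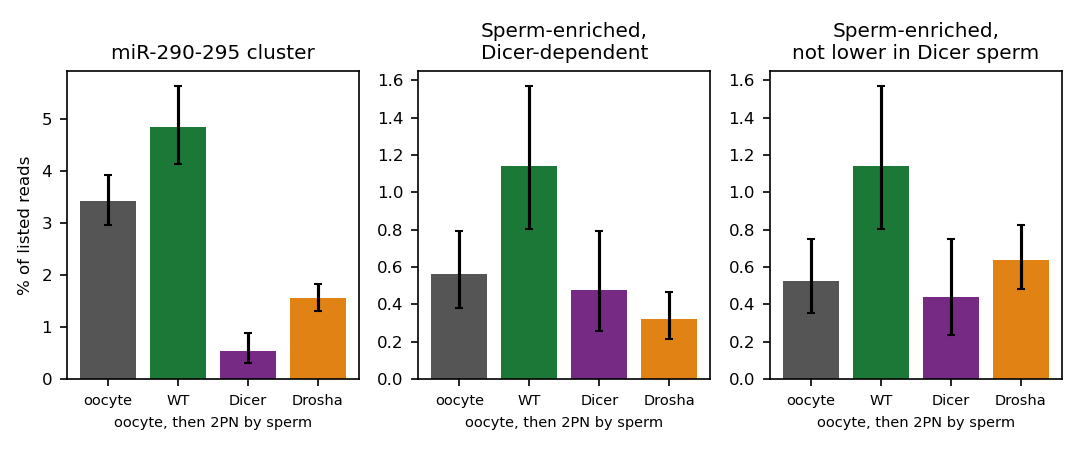
Summed share of listed reads (y axis, percent, from 0) of the miR-290-295 cluster and of sperm-enriched features, divided by whether they were at least 4-fold lower or not lower in Dicer cKO sperm; bars are single libraries of oocytes and of 2PN embryos by their sperm, with 95% exact intervals, and the cluster's panel has its own scale. The WT embryo bar is the highest in every panel, and the Dicer cKO bar of the cluster (0.542%) is the lowest of its 4.

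Of the most abundant Dicer-dependent sperm miRNAs, miR-19b-3p of the miR-17-92 cluster had the most reads in WT embryos. It made up 9.14% and 10.1% of WT sperm reads and 1.96% and 1.69% of Dicer cKO sperm reads. It had 14 reads in WT embryos and 0 in embryos from Dicer cKO sperm, at least 4.25-fold lower at the floor of 3 reads (the exact interval begins at 3.02-fold), beside 2 reads in oocytes and 1 in embryos from Drosha cKO sperm. Its neighbour miR-19a-3p had 4 reads in WT embryos and 0 in the Dicer cKO library and in oocytes. The miR-17-92 cluster with its paralogs, which act in dividing cells, summed to 41 and 11 reads, 3.39-fold lower (1.71 to 7.32). Here miR-25-3p ran the other way, at 5 and 7 reads.

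The miR-34 and miR-449 family as a whole had 38 reads (1.17%) in WT embryos and 55 (1.86%) in the Dicer cKO library, a ratio of 1.59 (1.03 to 2.47) that was 0.835 in RPM, and miR-34a-5p gave 25 and 43 of these reads. miR-34b-5p and miR-34c-5p, which followed miR-19b-3p by mean WT sperm level and held 5.08% to 7.26% of WT sperm reads, had 1 read each in WT embryos and 0 in the Dicer cKO library, and the oocyte library held 3 and 1. A difference in these was not detectable at this depth. miR-34b-3p, the other strand of the Mir34b hairpin (chr9:51103574-51103595, minus strand), had 9 and 11 reads in the embryo libraries, a ratio of 1.34 (0.506 to 3.67) that was 0.705 in RPM, and 11 reads in oocytes. miR-18a-5p, miR-20a-5p and miR-425-5p had at most 2 reads in either embryo library. The X-linked testis miRNAs summed to 8 and 4 reads, 1.82-fold lower with an interval of 0.488 to 8.26.

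The remaining lists held few reads. The Sfmbt2 cluster, whose members are near-identical in sequence so that reads may be split among them, summed to 27 and 7 reads, 3.51-fold lower (1.49 to 9.55), with 13 of 16 members lower in share, beside 60.7% of all features, and none of them had more than 5 reads in either library. miRNAs made without Drosha's complex summed to 13 and 1 reads, a ratio of 11.8-fold lower with a counting interval of 1.78 to 503, and all 6 members with reads were lower in share, beside 60.7% of all features. miR-320-3p gave 6 and 1 of these reads and miR-484 gave 3 and 0. The stromal list had 15 and 7 reads and the miR-10, miR-99/100 and miR-125 families had 8 and 3, both with intervals that hold equal shares. The miR-29 family had 2 reads in each library. Endo-siRNAs had 6 reads from 6 entries in WT embryos and 1 read in the Dicer cKO library, against 13 in oocytes; the ratio of 5.46-fold lower had a counting interval of 0.662 to 251, so a difference was not detectable at this depth.

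Over all 36 features, the Dicer cKO library had the lowest share of the 4 oocyte and embryo libraries for 18 features and the highest for 10. In RPM these counts were 28 and 2. The WT embryo library had the highest share for 15 features and the lowest for 7, which became 10 and 5 in RPM. These orders describe 4 single libraries, and any ratio of the Drosha cKO embryo library to the WT embryo library shares the WT library with the ratios above.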

How the data were processed

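Small RNA libraries were aligned with Bowtie to mm10, per the submitters' processing notes. The sources used here do not give versions, the counting rule or where the endo-siRNA entries come from. The authors deposited raw read counts per feature, and RPM values in which each count is divided by 1 number per library. Counts were used as deposited and scaled to listed reads (CPM or percent), with the authors' RPM and TMM factors from edgeR 4.0.16 under R 4.3.3 as alternatives. Ratios carry exact conditional binomial intervals and shares Clopper-Pearson intervals at 95%, from scipy 1.17.1, checked on simulated counts. A floor of 3 reads was used for ranking, 2-fold counts, log2 ratios and bounds against 0 reads. Other ratios use the reads as counted. Features entered counts with at least 10 reads in 1 library. No test across features was run, since each side has 1 library. Libraries were grouped by their titles. Mature sequences matched 1333 of 1592 miRNAs by name in a RefSeq table on GRCm38.p6. A reference genome of a different build was left aside.

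The members, lists and rules were chosen with earlier results of these data known. Named features were the 10 most abundant of each library, the 10 highest and 10 lowest ratios among features with at least 20 reads in 1 library, the 4 or fewer members with the most reads per list, and the 8 most abundant Dicer-dependent sperm-enriched features. The rest of the 36, and the other members named beside a list, seed or family sum, were named after their values were seen. The lists were 17 miRNA groups and the endo-siRNAs.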

Additional observations from a re-analysis of the deposited data

Results flagged for a closer look

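miR-23a-3p, miR-31-5p and miR-7a-1-3p, each past 2-fold in both materials, ran opposite ways in embryos and in sperm. For those named, both Dicer cKO sperm libraries lay on the same side of both WT sperm libraries. More features went the same way: 4 were lower and 3 higher past 2-fold in both materials, with sperm ratios floored at 3 reads. The difference between the materials was not tested. Other features ran opposite ways but were within 2-fold in 1 material, such as let-7f-5p (0.619 in embryos, 3.90 in sperm) and miR-23b-3p (0.488 and 1.54). miR-23a-3p had a ratio of 0.191 in embryos and 5.49 in sperm. miR-31-5p had a ratio of 0.220 in embryos, on 10 and 2 reads, and 3.69 in sperm. miR-7a-1-3p had a ratio of 2.42 in embryos and 0.449 in sperm. It made up 0.102% and 0.0488% of the WT sperm libraries and 0.0447% and 0.0231% of the Dicer cKO sperm libraries. WT replicate 2 and Dicer cKO replicate 1 were thus close, and replicates of each group lay apart.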

How the results depend on the processing

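No paired analysis was possible because each side of the comparison has 1 library. The 7 higher and 16 lower features became 2 higher in RPM, 11 and 27 at a minimum of 5 reads, 3 and 9 at 20 reads, and 2 and 9 at 4-fold. In RPM the list ratios were 0.835 for miR-34 and miR-449, 0.423 for let-7, 0.467 for miR-183, miR-96 and miR-182, 0.0588 for miR-290-295, 0.899 for miR-30, 0.304 for miR-15 and miR-16, 0.201 for miR-23, miR-27 and miR-24 and 0.198 for Dlk1-Dio3; they were 0.220 for sperm-enriched and 0.569 for oocyte-enriched features. With TMM factors let-7 stood at 1.05, miR-183, miR-96 and miR-182 at 1.16, miR-30 at 2.23, miR-15 and miR-16 at 0.756, miR-23, miR-27 and miR-24 at 0.498 and oocyte-enriched features at 1.41. Without miR-30c-5p the ratios were 1.12 for miR-183, miR-96 and miR-182, 0.731 for miR-15 and miR-16 and 0.481 for miR-23, miR-27 and miR-24. The miR-30 ratio was then 0.769, but it rests on the 9 WT and 5 Dicer cKO reads left in that list. Without miR-34b-3p, chosen after seeing the data, the Dicer-dependent sperm group had a ratio of 0.118. These shifts follow from the totals or the members used. Leaving out any 1 WT or Dicer cKO sperm library, enrichment of 2 or 10 times, a floor of 1 read and miRNA reads alone kept the values they were run on within the counting intervals. Of 27 named features that entered the counts, 11 moved outside their counting interval in RPM and 5 with TMM factors. Depth limits what can be seen: 1 read is 308 CPM in the WT and 339 CPM in the Dicer cKO embryo library.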

Other observations

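Of the 326 features with reads, 143 had them in the WT embryo library alone and 77 in the Dicer cKO embryo library alone. Some of these had over 3 reads, and they were looked up after their values were seen. In the WT library there were 12 of them, among them miR-290a-5p and miR-19b-3p, both given above. Others of the 12 were miR-17-3p with 7 reads, miR-295-3p with 7, miR-290b-3p with 6, and miR-92a-3p, miR-467d-3p, miR-652-3p and miR-5100 with 5 each. miR-5100 had 18 reads in the oocyte library and 0 in both cKO embryo libraries. In the Dicer cKO library there were 3: miR-691 with 8 reads, at least 2.93-fold higher at the floor of 3 reads (the exact interval begins at 1.88-fold), which had 0 reads in the oocyte library and 1 in the Drosha cKO embryo library, miR-1843a-3p with 6 reads and miR-8092 with 4. miR-296-5p, from the imprinted Gnas region, had 9 reads in the WT and 1 in the Dicer cKO library, beside 10 in the oocyte and 10 in the Drosha cKO library.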
